A study of Homo sapiens with 16 samples.

Results

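METTL16 was depleted in 3 samples of A549, a line from a human lung cancer (non-small cell type), and these were set against 3 samples in which it was intact. The members were taken by their labels, and they make up 6 of the 8 samples of the series and 12 of its 16 libraries. The depleted samples were clone 1 and clone 2, a pair of clones labelled sgM16-1 and sgM16-2 that carry 1 guide RNA against METTL16, and a knockdown labelled shM16-2, made with 1 short hairpin RNA. The controls were untreated A549 cells and 2 samples with a scrambled hairpin, here scramble 1 and scramble 2. The authors deposited their values in 3 tables: untreated with both clones, scramble 1 with the knockdown, and scramble 2 with an eIF4E2 knockdown that is not used here. The series text speaks of a non-targeting guide control where the sample label says untreated, so guide delivery and cloning cannot be told apart from METTL16 loss in the clones. The same guide made both clones, the knockdown is 1 sample, and nothing in the labels says that the controls are independent cultures, so p-values measure the spread between these samples. All cells had fresh medium for 2 h and cycloheximide, which stalls elongating ribosomes, at 100 µg/mL for 5 min. Each sample gave an input library of fragmented total RNA and a footprint library of the fragments that ribosomes shield from RNase I.

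METTL16 is a methyltransferase that places N6-methyladenosine (m6A) on U6 small nuclear RNA and on hairpins of the MAT2A transcript. MAT2A makes S-adenosylmethionine (SAM), the methyl donor of the cell, and METTL16 is known to raise MAT2A RNA when SAM is scarce. A cytoplasmic role in translation has also been proposed, and the title of the series names eIF4E2, a cap-binding protein that holds mRNAs back from initiation, as its partner. The comparison asks which mRNA levels (input), ribosome occupancies (footprints) and footprint to input ratios (translation efficiency, TE) differ in depleted cells from guide and hairpin alike, by more than the controls differ among themselves.

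A total of 8481 genes were listed in all 6 column pairs, of 12242 listed in at least 1, and 8095 of them had a mean of at least 1 TPM (a length-corrected share of the library's reads) in both assays. The recovered reads came to 462611 to 699461 per input library and 196995 to 876336 per footprint library, and the median common gene had 23 to 31 input reads and 10 to 39 footprint reads. Levels below are TPM after each library was scaled to the same all-gene median, and changes are differences of mean log2(TPM + 1), 3 depleted minus 3 control samples. Of 10 markers of the line, 8 were listed in the input of all 6 samples. The deposited TPM summed over all 10, with unlisted values as 0, came to 3355 to 5190 in controls and 3221 to 3993 in depleted samples. Of the 5 leukocyte markers, CD14 was the one listed, with 3.07 to 12.4 TPM in controls and 1.51 to 8.0 TPM in depleted samples. Of the 6 fibroblast markers, 4 had no listed value, and the summed TPM of the list was 3.04 to 7.59 in controls and 1.85 to 7.04 in depleted samples. The 3 endothelial and 2 erythroid markers had none.

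METTL16 itself (chromosome 17, 2415715 to 2511888, GRCh38.p14) was lower in the input of every depleted sample. Its input stood at 13.6, 11.1 and 11.4 TPM in untreated, scramble 1 and scramble 2 cells, from 45, 34 and 44 reads. It stood at 6.77, 6.37 and 4.5 TPM in clone 1, clone 2 and the knockdown, from 28, 25 and 19 reads. The groups did not overlap, and the transcript remained present in all 3 depleted samples. The change was -0.93 (SE 0.34), with an adjusted p of 1.0 over 8095 genes in limma (0.0214 unadjusted), so it did not pass. The exact permutation test over the 6 samples gave p = 0.1, two-sided, the smallest that 3 against 3 samples allow. METTL16 footprints stood at 5.41, 5.95 and 3.64 TPM in the controls and at 3.92, 2.12 and 1.36 TPM in the depleted samples, where clone 1 lies above scramble 2. The footprint change was -0.84 (SE 0.38) and the TE change 0.09 (SE 0.46), and neither passed. Protein was not measured in these files.

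**Figure D1:**
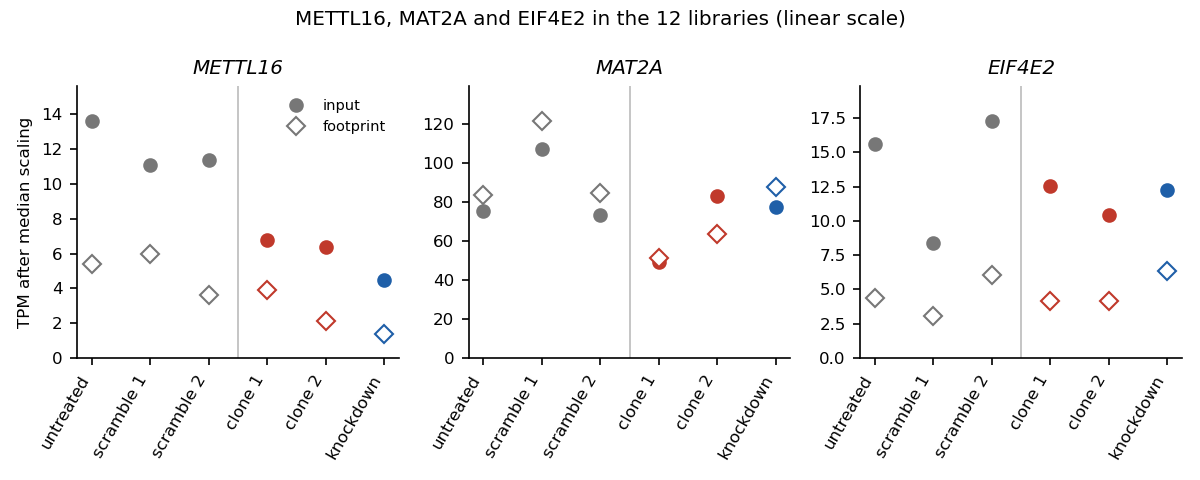
Median-scaled TPM (linear axis, from 0) of METTL16, MAT2A and EIF4E2 in each of the 6 samples, with filled circles for input and open diamonds for footprints, grey for controls, red for clones and blue for the knockdown. METTL16 input lies between 11.1 and 13.6 TPM in controls and between 4.5 and 6.77 TPM in depleted samples, while the groups overlap for MAT2A and EIF4E2.

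MAT2A (chromosome 2, 85539168 to 85545281) showed no separation. Its input stood at 75.1, 107 and 73.0 TPM in the controls and at 49.2, 83.2 and 77.4 TPM in clone 1, clone 2 and the knockdown. The change was -0.29 (SE 0.32) in input, -0.52 (SE 0.32) in footprints and -0.23 (SE 0.28) in TE. MAT2A footprints stood at 83.5, 121 and 84.5 TPM against 51.4, 63.2 and 87.7 TPM, so both clones lay below all the controls. The knockdown lay below its own control, scramble 1, but above untreated cells and scramble 2. EIF4E2 (chromosome 2, 232550689 to 232583644) stood at 15.6, 8.42 and 17.2 TPM in control input and at 12.5, 10.4 and 12.3 TPM in depleted input. Scramble 1 was the lowest of the 6 samples for EIF4E2, and the changes of -0.16 (SE 0.37) in input, 0.12 (SE 0.35) in footprints and 0.28 (SE 0.43) in TE did not pass.

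The knockdown and scramble 1, which share a deposited table, lay closer to each other than to any other sample in input and footprints. The distance between a pair of samples was taken as the SD over 3228 genes (those with a mean of at least 10 TPM in both assays) of their log2 difference. In input the knockdown lay 0.57 from scramble 1, its own control, and 0.87 to 1.13 from each of the other 4 samples. Scramble 1 in turn lay 0.75 to 1.04 from those 4, while untreated cells, scramble 2 and both clones lay 0.43 to 0.57 from each other. The 3 controls differed by 0.56 to 1.04 among themselves, and the median distance between a control and a depleted sample was 0.57. In footprints the knockdown lay 0.56 from scramble 1 and 0.98 to 1.04 from the others. Untreated cells and both clones lay 0.42 to 0.48 from each other, and scramble 2 lay 0.64 to 0.70 from those 3. In TE the control pairs differed by 0.74 to 0.93 and the depleted pairs by 0.56 to 0.69, and the knockdown was about as far from scramble 1 (0.66) as from the clones (0.67 and 0.69). In deposited TPM, 8 markers of the line were listed in all 6 samples. Of these, KRT7, AKR1B10 and CPS1 set the knockdown and scramble 1 apart from the other 4 samples. KRT8, KRT18, KRT19, AKR1C1 and ALDH1A1 did not. After median scaling KRT7, CPS1 and ALDH1A1 set the pair apart. AKR1B10 then did not, and its knockdown value lay 0.46 log2 units above scramble 1. The deposited input of KRT7, an epithelial keratin, was 368 TPM in scramble 1 and 323 TPM in the knockdown, against 856 to 1378 TPM in the other 4. CPS1, the first enzyme of the urea cycle, was at 63.1 and 78.3 TPM in that pair and at 8.86 to 20.0 TPM in the others. Preparation of a table as a unit is not recorded in the labels, and its part in the results was not tested. In these bulk samples fewer cells of a kind and less RNA per cell cannot be told apart.

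**Figure D2:**
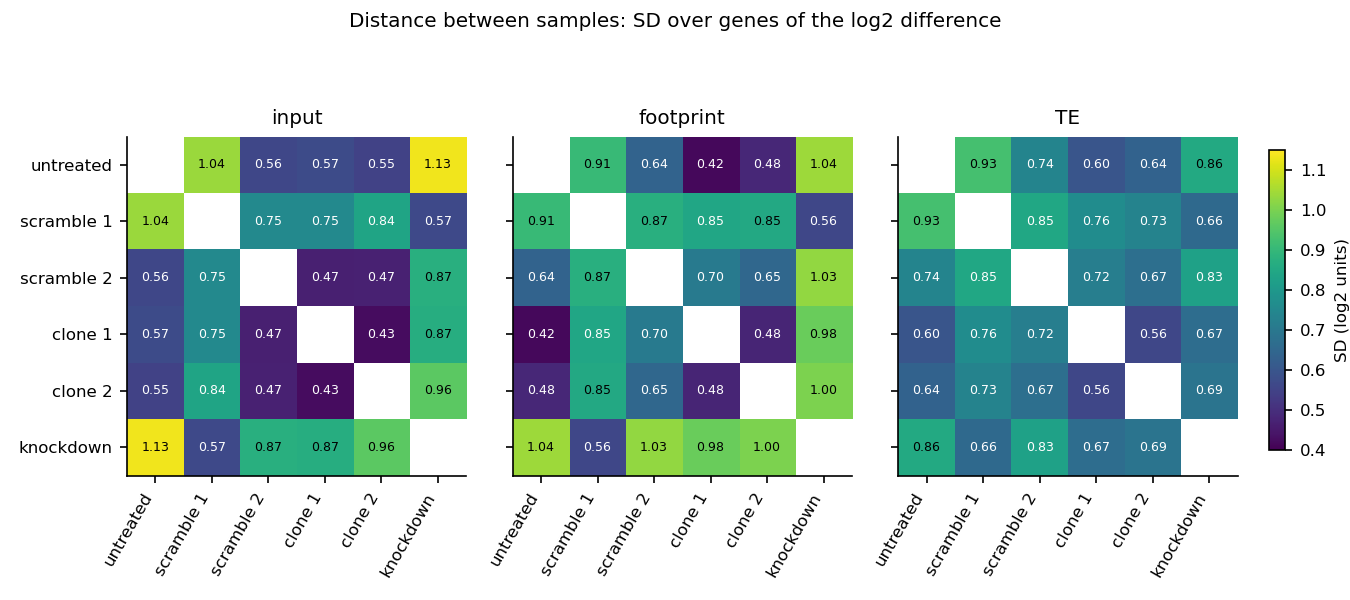
Heat maps of the SD over 3228 genes of the log2 difference between each pair of samples, for input, footprints and TE, with darker cells for closer pairs. Scramble 1 and the knockdown, from 1 table, lie 0.57 apart in input and 0.56 in footprints, and both lie farther from the other 4 samples.

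No gene passed the test in any readout. In limma at an adjusted p of 0.05, 0 of 8095 genes (0%) were called higher or lower in input, 0 (0%) in footprints and 0 (0%) in TE. At an unadjusted p under 0.05 there were 132 genes in input (79 higher, 53 lower), 162 in footprints (89 higher, 73 lower) and 245 in TE (161 higher, 84 lower). These were 1.63%, 2.0% and 3.03% of the genes tested. The test of voom on recovered reads called 0 genes in each readout, with 118, 118 and 155 at an unadjusted p under 0.05. The median SE of a change was 0.38 in input, 0.38 in footprints and 0.46 in TE. With the deposited table as a block, which compares depleted cells with controls within tables and so takes nothing from scramble 2 for the change, 0 genes passed, and the unadjusted counts were 653 in input, 411 in footprints and 463 in TE. The lowest adjusted p in that fit was 0.276 in input, 0.226 in footprints and 0.657 in TE.

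Descriptions with no test take the place of calls below. In the first, the groups do not overlap: all 3 depleted samples lie above, or all below, all 3 controls. A gene separated in this way has an exact permutation p of 0.1, two-sided, so separation alone passes no threshold used here. By this description 255 genes (3.15%) were higher and 233 (2.88%) lower in input, 244 (3.01%) higher and 279 (3.45%) lower in footprints, and 360 (4.45%) higher and 295 (3.64%) lower in TE. The gap between the groups was wider than the whole range of the 3 controls for far fewer of them: 54 (0.667%) higher and 41 (0.506%) lower in input, 34 (0.42%) and 42 (0.519%) in footprints, and 48 (0.593%) and 39 (0.482%) in TE. Without centring of the libraries, 115 genes were higher and 328 lower in input, 21 and 314 in footprints, and 94 and 205 in TE. In the second, both clones differ from untreated cells and the knockdown from scramble 1 in the same direction. By it 1480 genes (18.3%) were higher and 1683 (20.8%) lower in input, 1277 (15.8%) and 1446 (17.9%) in footprints, and 1369 (16.9%) and 1387 (17.1%) in TE. These counts rest on 1 control library in each table.

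Changes by guide and by hairpin showed no linear relation across genes. Over 8095 genes the change of the clones against untreated cells and that of the knockdown against scramble 1, which share no sample, had a Pearson r of -0.02 in input, 0.01 in footprints and -0.05 in TE. These are descriptions across genes, which are not independent replicates. The test of the difference between the guide change and the hairpin change, here against the mean of both scrambles, called 0 genes in each readout, with 334, 235 and 272 genes at an unadjusted p under 0.05. The lowest adjusted p was 0.508 in input, and the median SE of that difference was 0.72 in input, 0.73 in footprints and 0.93 in TE.

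**Figure D3:**
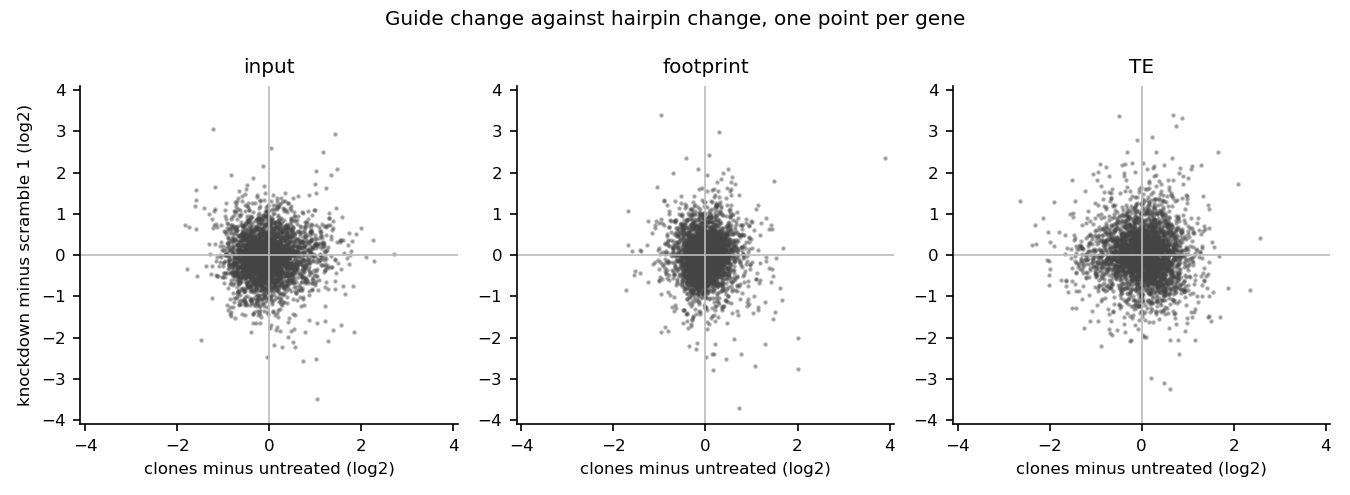
One point per gene for the 3228 genes with a mean of at least 10 TPM in both assays: the mean log2 change of both clones against untreated cells (x axis) and of the knockdown against scramble 1 (y axis), in input, footprints and TE. The clouds are round, with a Pearson r over these genes of 0.01 in input, 0.00 in footprints and -0.03 in TE.

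IGFBP7 led the mRNAs that were higher in all depleted samples. IGFBP7 (chromosome 4, 57030773 to 57110385) encodes a secreted protein that binds insulin-like growth factors. Its input stood at 21.0, 10.5 and 13.1 TPM in untreated, scramble 1 and scramble 2 cells, from 15, 7 and 11 reads. It stood at 75.0, 47.1 and 48.3 TPM in clone 1, clone 2 and the knockdown, from 67, 40 and 44 reads. The lowest depleted sample was thus more than 1 log2 unit above the highest control, a gap of 1.13, and the control range was 0.93. The change of 1.88 (SE 0.35, unadjusted p = 0.00034) had an adjusted p of 1.0 in limma. It held its direction in 15 of 15 alternatives, at 1.67 to 2.14, with adjusted p of 0.276 to 1.0 in limma. Leaving out a sample could not reverse it, since IGFBP7 was chosen for groups that do not overlap. The footprints of IGFBP7 were higher too, at 32.9, 22.3 and 5.61 TPM in controls and 54.4, 44.6 and 44.9 TPM in depleted samples, with a change of 1.49 (SE 0.54). The lowest control value, in scramble 2, came from 3 footprint reads.

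VCL, NT5E, CDH2 and GAA also belonged to this group. VCL encodes vinculin, which ties adhesion sites to actin, and its input stood at 46.1, 38.4 and 46.6 TPM in controls against 78.3, 74.7 and 79.9 TPM, from 132 to 202 against 328 to 377 reads. Its change was 0.82 (SE 0.27), with a gap of 0.67 over a control range of 0.27, while its footprints overlapped between groups. CDH2, the gene of N-cadherin, stood at 10.1, 17.6 and 18.0 TPM in controls and 26.7, 25.7 and 33.5 TPM in depleted cells. NT5E, the ecto-5'-nucleotidase CD73, stood at 29.1, 30.8 and 24.4 TPM against 63.4, 40.1 and 49.0 TPM. GAA, a lysosomal glucosidase, stood at 19.6, 25 and 24.2 TPM against 36.7, 39.5 and 49.7 TPM. The other 5 genes of this rank were SMIM26, SF3B6 (a subunit of the U2 snRNP that sits at the branch point), TCEAL4, SELENOM (a selenoprotein of the endoplasmic reticulum) and UBQLN2 (a proteasome shuttle). The changes of all 10 lay between 0.64 and 1.88, and 70 genes met the conditions from which they were taken.

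NSMCE2 led the mRNAs that were lower in all depleted samples. NSMCE2, the SUMO ligase of the SMC5/6 complex (chromosome 8, 125091860 to 125367120), had input of 15.3, 18.5 and 13.9 TPM in controls and 6.5, 5.32 and 8.49 TPM in depleted cells, from 17 to 19 against 7 to 12 reads. Its change was -1.13 (SE 0.34). TRIB3, a pseudokinase gene induced by ATF4, stood at 96.7, 65.3 and 76.4 TPM against 41.4, 47.0 and 45.7 TPM, a change of -0.80 (SE 0.28) that rests on 63 to 118 reads a library. SFN, the epithelial 14-3-3 sigma, stood at 216, 86.6 and 141 TPM against 59.5, 64.3 and 68.0 TPM. The control range of SFN, 1.31, was far wider than its gap of 0.35. MAFK, a small Maf partner of NRF2, stood at 66.3, 61.7 and 58.3 TPM against 43.5, 41.7 and 42.2 TPM, from 82 to 113 reads, with the controls and the depleted samples each within 0.18 on the log2 scale. The others were COMMD10, C16orf91, GTF2E2 (a subunit of the initiation factor TFIIE), RNPEP (aminopeptidase B), BYSL (a factor of small-subunit assembly) and CLN6, with changes of -0.45 to -1.13 over the 10.

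CIRBP had the clearest difference in footprints. CIRBP (chromosome 19, 1269332 to 1274880) encodes an RNA-binding protein induced by mild cold. Its footprints stood at 6.16, 7.67 and 6.23 TPM in untreated, scramble 1 and scramble 2 cells and at 15.2, 13.5 and 18.0 TPM in clone 1, clone 2 and the knockdown. The reads behind them were 26, 34 and 11 in controls and 113, 41 and 66 in depleted samples. Its input overlapped between groups, at 25, 20.1 and 24.6 TPM against 22.7, 23.6 and 25.9 TPM, so the ratio was higher in every depleted sample. The footprint change was 1.10 (SE 0.29, unadjusted p = 0.00426, adjusted p = 1.0 in limma), with 1.10 in the clones and 1.13 in the knockdown within their own tables. The TE change of CIRBP was 1.05 (SE 0.37), and it did not pass either.

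Among the other genes with higher footprints in all depleted samples, UQCC2, an assembly factor of respiratory complex III, stood at 7.4, 7.66 and 6.16 TPM against 11.8, 14.8 and 11.1 TPM. PRKAR1A, a regulatory subunit of protein kinase A, stood at 22.8, 21.3 and 14.8 TPM against 32.3, 29.9 and 31.0 TPM. PYCARD, the inflammasome adaptor ASC, stood at 10.0, 7.79 and 10.9 TPM against 21.6, 13.9 and 23.0 TPM. These 3 genes, LENG1, OSTF1, SIRT6 (a nuclear deacetylase), PBDC1, FRMD8, CIRBP and IGFBP7 had changes of 0.53 to 1.49, and the gap was wider than the control range in 5 of the 10.

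Genes with lower footprints in all depleted samples had narrower gaps, 0.26 to 0.32. LPCAT1, an acyltransferase of phospholipid remodelling, stood at 20.5, 36.4 and 21.7 TPM in controls and 16.2, 13.0 and 13.9 TPM in depleted cells. PPAT, the committed step of purine synthesis, stood at 10.8, 11.1 and 14.6 TPM against 8.48, 7.34 and 4.78 TPM. SRC, the tyrosine kinase, stood at 26.3, 19.3 and 29.5 TPM against 13.0, 15.9 and 14.7 TPM, from 49 to 113 reads. AHCYL1, a relative of the S-adenosylhomocysteine hydrolase that acts on calcium channels, stood at 27.3, 36.8 and 30.1 TPM against 22.4, 22.5 and 19.3 TPM. NMD3, the export adaptor of the large ribosomal subunit, PKP3, a desmosome protein, DHX8, a splicing helicase, TBCC, a tubulin-folding cofactor, ZDHHC16, a palmitoyltransferase, and NMB, a neuropeptide gene, completed the 10, with changes of -0.49 to -1.15.

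**Figure D4:**
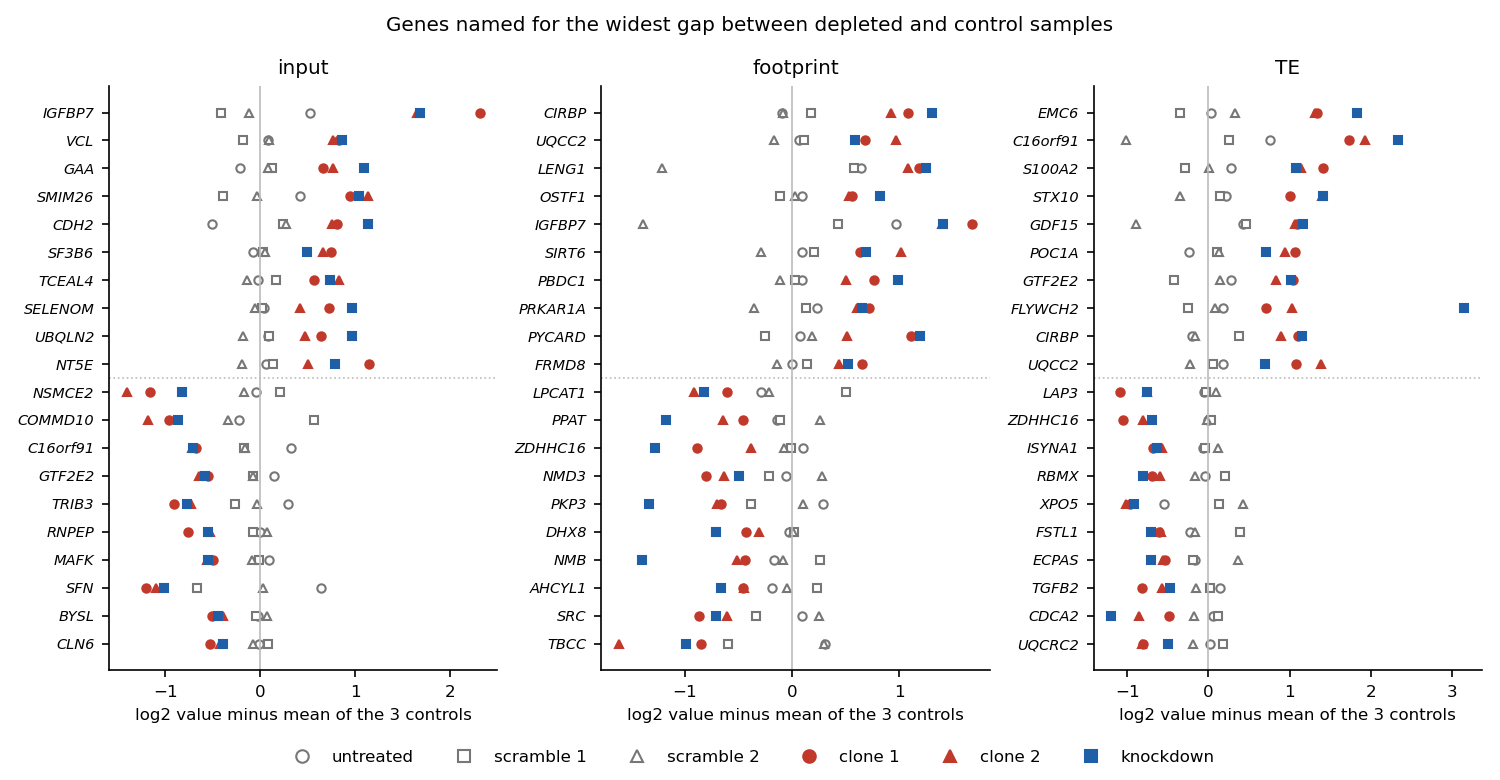
For each readout, the 10 genes with the widest gap in each direction: the log2 value of each sample minus the mean of the 3 controls, with open grey symbols for controls, red for clones and a blue square for the knockdown. The groups do not overlap for any gene shown, by the rule that chose them, and the gap is 1.13 for IGFBP7 in input, 0.74 for CIRBP in footprints and 0.98 for EMC6 in TE.

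EMC6 had the widest gap in TE. EMC6 (chromosome 17, 3668812 to 3669665) encodes a subunit of the complex that inserts proteins into the endoplasmic reticulum membrane. Its log2 TE was 0.21, -0.16 and 0.51 in untreated, scramble 1 and scramble 2 cells and 1.52, 1.49 and 2.02 in clone 1, clone 2 and the knockdown. The change was 1.49 (SE 0.32, unadjusted p = 0.000443, adjusted p = 1.0 in limma). The reads behind it were few, at 6 to 14 in input and 11 to 103 in footprints. The input of EMC6 changed by -0.76 in the clones and -1.15 in the knockdown within their own tables, so its ratio carries an input difference. C16orf91 and GTF2E2 were higher in TE and lower in input, with overlapping footprints, so their ratios also carry the input difference described above. The TE difference of C16orf91 was 2.0 (SE 0.44), and its lowest control rests on 1 footprint read in scramble 2. S100A2 had 1 input read in scramble 1 and 1 in the knockdown, and 0 footprint reads in scramble 1, so its TE values in that table are set by the pseudocount. STX10 (a SNARE of the trans-Golgi), GDF15 (a stress-induced cytokine), POC1A (a centriole protein), FLYWCH2, CIRBP and UQCC2 completed the 10, with changes of 0.91 to 2.0 over them. Own-table input changes in the clones and the knockdown were -0.21 and -1.33 for FLYWCH2 and -0.56 and -0.16 for GDF15. For CIRBP they were -0.11 and 0.35.

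LAP3 and ZDHHC16 had the widest gaps among genes with lower TE in all depleted samples. ZDHHC16 had a log2 TE of -1.62, -1.58 and -1.63 in the controls and -2.66, -2.42 and -2.30 in the depleted samples. Its change was -0.85 (SE 0.33), with a gap of 0.67 over a control range of 0.05. LAP3, a leucine aminopeptidase, stood at 0.64, 0.67 and 0.79 in the controls and -0.39, -0.06 and -0.06 in the depleted samples. UQCRC2, a core protein of respiratory complex III, stood at 0.91, 1.07 and 0.70 against 0.09, 0.08 and 0.40, from 39 to 110 input reads and 87 to 245 footprint reads. TGFB2, a secreted growth factor, had a log2 TE of 0.60, 0.48 and 0.30 against -0.36, -0.11 and -0.01. ISYNA1 (inositol synthesis), RBMX (a nuclear RNA-binding protein), XPO5 (the exporter of pre-miRNAs), FSTL1 (a secreted glycoprotein), ECPAS (a proteasome adaptor) and CDCA2 (a phosphatase subunit of chromatin) completed the 10, with changes of -0.60 to -0.96. Own-table input changes in the clones and the knockdown were 0.46 and 0.80 for LAP3 and 0.42 and 1.27 for FSTL1. They were 0.40 and 0.69 for ECPAS and 0.47 and 0.45 for CDCA2. The ratios of these genes thus carry an input difference. ZDHHC16 had a footprint change of -0.85, beside its TE change of -0.85.

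Replication-dependent histone genes, whose mRNAs end in a stem-loop and rise in S phase, were the list with the most one-sided input counts. Of 46 measured members, which include the replacement linker histone H1-10, 39 were lower in input in both clones and in the knockdown against their own controls and 0 were higher, beside 20.8% and 18.3% of all genes. The median input change over 3 against 3 was -0.26, beside -0.01 for all genes. The groups overlapped for every member in input. The median member stood at 5.50, 4.02 and 5.0 log2 units above the library median in untreated, scramble 1 and scramble 2 cells and at 4.86, 5.34 and 3.69 in clone 1, clone 2 and the knockdown. Quantile normalization cut the count to 25 of 46, with 1 higher, beside 18.6% and 17.8% of all genes. H3C2 input stood at 4464, 1416 and 2654 TPM in the controls and 2694, 3080 and 1152 TPM in the depleted samples. The linker histones H1-4 and H1-3 gave changes of -0.17 (SE 0.53) and -0.61 (SE 0.51), and no member passed. Genes of replication and G1/S entry, which mark S-phase cells, had 16 of 44 members lower and 6 higher by the same count, beside 20.8% and 18.3% of all genes. The part of cell cycle in the histone counts was not tested. Near-identical histone genes can share reads, so single members are uncertain.

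Histone promoters are printed because these genes stood lower together in their own tables; shown are the 3 members with the highest mean input among the 39. The sequences are from RefSeq (GRCh38.p14) and give the 150 bases before the annotated start, 5′ to 3′ on the gene's strand, with capitals marking TATAAA and CCAAT on either strand. H3C2 is chr6:26032100-26032249 on the minus strand, H1-4 chr6:26156179-26156328 on the plus strand and H1-2 chr6:26056471-26056620 on the minus strand.
H3C2: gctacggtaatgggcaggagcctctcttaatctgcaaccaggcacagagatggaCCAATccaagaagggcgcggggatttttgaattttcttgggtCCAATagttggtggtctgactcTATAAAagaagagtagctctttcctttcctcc
H1-4: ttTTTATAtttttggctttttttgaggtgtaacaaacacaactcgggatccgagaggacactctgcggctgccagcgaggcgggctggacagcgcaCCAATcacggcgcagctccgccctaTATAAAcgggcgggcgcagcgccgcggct
H1-2: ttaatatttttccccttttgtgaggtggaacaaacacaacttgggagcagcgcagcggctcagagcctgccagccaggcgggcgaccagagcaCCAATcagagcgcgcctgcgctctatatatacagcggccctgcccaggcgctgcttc
TATAAA starts 32 bases before the start of H3C2 and 29 before that of H1-4, and H1-2 has no match to these letters in the window. H1-4 has a second TATAAA, on the other strand, 148 bases before the start. CCAAT starts 54 bases before the start in H3C2 and H1-4 and 57 in H1-2, and H3C2 has a second one at 96. TATAAA was in 25 of the 40 list members with a promoter entry (62.5%) and in 7.05% of 27305 promoters, and CCAAT in 35 (87.5%) and 24.4%. The motifs do not overlap each other, and a match is a description of the letters.

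In TE the histone list leaned the other way. Of the 46 members 21 were higher and 0 lower in both clones and the knockdown against their own controls, beside 16.9% and 17.1% of all genes, and the median change was 0.41, beside 0.01 for all genes. Without centring the counts turned to 0 higher and 6 lower, beside 3.25% and 46.5% of all genes. The direction of the counts thus depends on the scaling of the libraries. The share of lower members stayed under that of all genes, and the median was 0.24, beside -0.11 for all genes. Groups did not overlap for 6 members (13.0%), all higher, beside 4.45% of all genes: H2AC4, H2AC6, H3C13, H3C3, H3C7 and H4C2, named after their values were seen. H2AC6 had a log2 TE of -0.47, -0.82 and -0.83 in controls and 0.33, -0.25 and 0.21 in depleted samples, a change of 0.80 (SE 0.27). Its input stood at 554, 300 and 436 TPM against 398, 496 and 179 TPM and its footprints at 399, 170 and 244 TPM against 500, 417 and 208 TPM. H4C2 had a log2 TE of -0.20, -0.13 and -0.70 against 0.63, 0.09 and 0.60. In footprints the list had 2 members higher and 17 lower by the own-table count, beside 15.8% and 17.9% of all genes, and a median change of 0.15.

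Genes of ER translocation and early secretion (the Sec61 channel, signal recognition particle, signal peptidase, oligosaccharyltransferase and COPII and COPI coats) were higher in input by the own-table count. Of 47 measured members 24 were higher and 0 lower, beside 18.3% and 20.8% of all genes, with a median change of 0.18. The count of higher members was 13 without centring and 25 under quantile normalization, beside 11.6% and 17.8% of all genes. The direction of the median held in both. In the footprints 18 were higher and 1 lower, beside 15.8% and 17.9% of all genes. Without centring these counts were 0 higher and 21 lower, beside 1.54% and 51.5% of all genes. Groups separated for 1 member in input (2.13%) and 0 in footprints, near or under the background. By sample the median member stood at 0.99, 1.82 and 1.21 log2 units above the library median in the controls and 1.56, 1.33 and 2.0 in clone 1, clone 2 and the knockdown, so scramble 1 exceeded both clones. KDELR3, a receptor that returns proteins to the ER, had the largest named input change, 0.77 (SE 0.50).

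The 13 mitochondrially encoded mRNAs stood highest in the knockdown and in its own control, scramble 1. By the own-table count 10 were higher in input and 12 in footprints, beside 18.3% and 15.8% of all genes. In either readout 0 were lower, beside 20.8% and 17.9% of all genes, and the median changes were 0.56 and 0.94. Quantile normalization left 4 higher in input and 6 in footprints, beside 17.8% and 16.3% of all genes, with 0 lower. The median member in footprints stood at 6.84, 8.50 and 7.0 log2 units above the library median in the controls and 7.25, 7.33 and 10.1 in clone 1, clone 2 and the knockdown. MT-CYB, a complex III subunit, had footprints of 2180, 8339 and 2043 TPM in the controls and 2448, 2524 and 25464 TPM in the depleted samples. MT-ND6, the one complex I subunit encoded on the light strand, separated in footprints, at 0, 8.21 and 0 TPM against 9.76, 20.0 and 46.2 TPM, but from 0, 3 and 0 reads against 6, 5 and 14. As background, these mRNAs are read by mitochondrial ribosomes, which cycloheximide does not stall.

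Nuclear genes of oxidative phosphorylation, assembly factors included, numbered 86. In input 34 were lower and 3 higher by the own-table count, beside 20.8% and 18.3% of all genes. In footprints 7 were higher and 17 lower, beside 15.8% and 17.9% of all genes, with a median change of 0.04. In TE, the ratio of footprints to input, 22 were higher and 4 lower, beside 16.9% and 17.1% of all genes. Without centring the TE counts turned to 3 higher and 42 lower, beside 3.25% and 46.5% of all genes, so that direction depends on the scaling. Groups separated in TE for 8 higher members (9.3%, beside 4.45% of all genes) and 1 lower, UQCRC2. UQCRQ, a small complex III subunit, had a log2 TE of 0.16, -0.12 and 0.04 in controls and 0.83, 0.64 and 0.55 in depleted samples. NDUFA6, a complex I subunit, stood at 0.14, 0.25 and -0.22 against 0.48, 0.90 and 0.64. ATP5MJ, a subunit of ATP synthase, stood at -1.16, -1.52 and -1.39 against -0.80, -0.66 and 0.19. The list median in TE was 0.59, 0.46 and 0.28 in the controls and 0.69, 0.55 and 0.65 in the depleted samples, which overlap at untreated cells.

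Cytosolic ribosomal proteins, 83 genes with their paralogs, had 42 members lower and 5 higher in input by the own-table count, beside 20.8% and 18.3% of all genes. The median change was -0.03 in input and 0.03 in TE. Under quantile normalization the input count was 13 lower and 13 higher, beside 18.6% and 17.8% of all genes. The direction of the input count thus does not hold across scalings. Groups separated in input for RPL11 and RPS3A, 2 members (2.41%, beside 2.88% of all genes), both lower. Mitochondrial ribosomal proteins, 73 genes, had 4 members with higher footprints in all depleted samples (5.48%), which were MRPL36, MRPL4, MRPS22 and MRPS26, beside 3.01% of all genes. By the own-table count, 10 members were higher and 13 lower in footprints, beside 15.8% and 17.9% of all genes. In input 7 were higher and 22 lower, beside 18.3% and 20.8% of all genes.

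**Figure D5:**
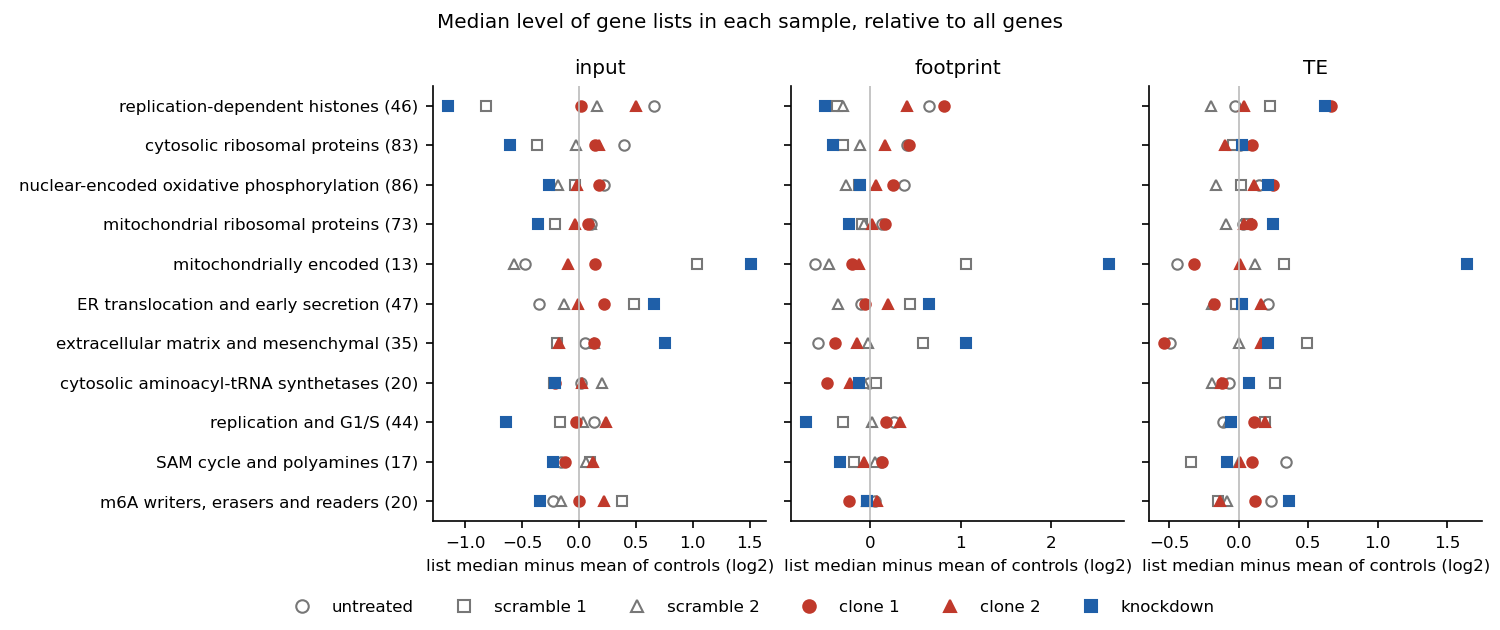
The median log2 level of each list's measured members relative to the library's all-gene median, minus the mean of the 3 controls, in input, footprints and TE, with the number of members in brackets, open grey symbols for controls, red for clones and a blue square for the knockdown. For histones in input, scramble 1 lies beside the knockdown (4.02 and 3.69 before subtraction) and away from the other samples. For mitochondrially encoded genes in footprints, the knockdown is highest (10.1 before subtraction). Scramble 1 comes next (8.50) and lies nearer the clones (7.25 and 7.33) than the knockdown.

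Lists closer to METTL16 showed few separations. Among 20 m6A writers, erasers and readers, footprints were lower in all depleted samples for METTL3 (the main mRNA m6A methyltransferase), RBM15B (its targeting partner) and IGF2BP2 (a reader), 15.0% beside 3.45% of all genes, and higher for the reader YTHDF2. METTL3 footprints stood at 8.5, 8.09 and 9.85 TPM in controls and 5.39, 5.74 and 4.43 TPM in depleted cells, a change of -0.67 (SE 0.30). The gap on the log2 scale was 0.0024 for YTHDF2, 0.06 for IGF2BP2 and 0.03 for RBM15B. TRMT112, the METTL5 cofactor, had a TE change of 1.06 (SE 0.36), with scramble 2 the lowest sample. In the SAM cycle and polyamine list of 17 genes, MAT2B, the regulatory partner of MAT2A, had input of 18.9, 20.9 and 24.2 TPM in controls and 17.3, 16.4 and 16.1 TPM in depleted cells, a change of -0.34 (SE 0.30). VARS1, a cytosolic aminoacyl-tRNA synthetase, had footprints of 28.5, 29.8 and 29.5 TPM in controls and 18.9, 26.1 and 20.6 TPM in depleted cells, lower in all 3. The list members named here for separated groups were chosen after their values were seen, and 0 of them passed limma.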

How the data were processed

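The authors deposited TPM per gene in 3 tables, with an input and a footprint column per sample. Per the submitters' processing notes, featureCounts 2.0.1, STAR 2.7.5c, Bowtie2 2.2.5, Bowtie 1.3.0 and cutadapt 2.8 were used on GRCh38, with no roles or gene lengths given in the sources used here. Listed genes summed to 44.6% to 49.8% of the TPM total in input columns and 16.1% to 35.1% in footprint columns. Whole reads were recovered, save for a multiple shared by all libraries of a gene, for all 8481 common genes from the steps of their TPM at a relative tolerance of 1e-06.

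Each library was scaled so that its median over the common genes equalled the geometric mean of the 6 medians of its assay, and log2(TPM + 1) was taken, which understates changes of low genes. limma 3.58.1 (R 4.3.3, eBayes with an intensity trend, two-sided, Benjamini-Hochberg threshold 0.05) compared 3 with 3 samples over 8095 genes, with TE as footprint minus input within each sample and 4 residual degrees of freedom. The procedure was run on simulated data with changes in footprints only and no difference between the deposited tables. That run therefore does not cover the spread between tables seen here. Single values had an exact permutation test (scipy 1.17.1). Alternatives changed the scaling, pseudocount, filter, trend, test, block and samples.

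METTL16, EIF4E2 and MAT2A were always named. Per readout, up to 10 genes a direction averaging 10 TPM or more in each assay were named, those past the threshold first and then those with the widest gap between groups and the same sign in both tables. From each list the 3 largest changes at most were named. The samples, 33 gene lists and rules were chosen with earlier results of these data known. RefSeq (GRCh38.p14) held 8075 of 8095 symbols (99.8%). Same-numbered samples of different groups share only a number, and the pairing used is that of the input and footprint library of 1 sample. A few results are not reported here.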

Additional observations from a re-analysis of the deposited data

How the results depend on the processing

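The counts of called genes were 0 in input, footprints and TE under every alternative run except 1: without centring of the libraries, 1 gene was called higher in footprints (MT-ND6, 3.19, adjusted p = 0.0089 in limma, from 0 to 3 reads in controls and 5 to 14 in depleted samples) and 1 lower (S100P, -2.83, adjusted p = 0.0353, from 0 to 7 reads). No centring moved the median of all genes to -0.15 in input, -0.25 in footprints and -0.11 in TE. Without centring, genes whose groups did not overlap numbered 115 higher and 328 lower in input, 21 and 314 in footprints, and 94 and 205 in TE. With a mean of 10 TPM required, fewer genes were tested, and the counts were 70 higher and 81 lower in input, 81 and 64 in footprints, and 165 and 88 in TE. Leaving out 1 of the 6 samples, an alternative chosen after seeing the data, relaxes the condition: the counts ranged from 458 to 925 higher and 457 to 1047 lower in input, from 454 to 794 and 507 to 851 in footprints, and from 620 to 1091 and 554 to 922 in TE. The highest input counts were those without scramble 1.

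TE was paired by sample. The fit with no replicate block, over 12 unpaired libraries, called 0 higher and 0 lower genes, with 98 at an unadjusted p under 0.05 against 245. Genes named for the gap between groups do not overlap by the rule that chose them, so leaving out a sample cannot reverse their direction. Of 1052 alternative values for the 69 named results, 1044 kept their direction and side of the threshold. The 8 others changed sign, and the cause was not tested: EIF4E2 input without scramble 2 (0.021, against -0.46 without scramble 1), EIF4E2 footprints without centring (-0.15), without the knockdown (-0.053) and without scramble 1 (-0.084, against 0.31 without scramble 2), and METTL16 TE with a pseudocount of 0.1 (-0.055), the table as a block (-0.049), without clone 1 (-0.10) and without scramble 2 (-0.051, against 0.26 without scramble 1). List counts under other scalings, and with scramble 2 as the control of the knockdown, were added after seeing the data. With scramble 2 in that place, histones lower in input were 43 of 46 and ER genes higher in input 28 of 47. The shares of all genes rose too, from 20.8% to 27.5% lower and from 18.3% to 23.2% higher in input. Scramble 2 had 196995 footprint reads, the fewest, and limits footprint and TE values of genes with few reads.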

Other observations

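Extracellular matrix and mesenchymal genes, 35 measured, had a median input change of 0.34, beside -0.01 for all genes, with 9 members higher and 1 lower in both clones and the knockdown against their own controls (25.7% and 2.86%, beside 18.3% and 20.8% of all genes). The median own-table change was 0.21 in the clones and 0.46 in the knockdown. The median member stood at 1.25, 1.00 and 1.33 log2 units above the library median in untreated, scramble 1 and scramble 2 cells, at 1.32 and 1.01 in clone 1 and clone 2, within the range of the controls, and at 1.94 in the knockdown. The groups separated in input for CDH2, 1 of 35 (2.86%, beside 3.15% of all genes). ITGA2, a collagen-binding integrin, had the largest input change of the list, 0.97 (SE 0.74), and TGFB2 gave 0.92 (SE 0.49). Both had lower TE in all depleted samples, with changes of -0.43 (SE 0.40) and -0.62 (SE 0.33). CDH1, the epithelial cadherin, had input of 1.25, 27.4 and 7.54 TPM as deposited in untreated, scramble 1 and scramble 2 cells, 3.93 in clone 1 and 79.4 in the knockdown, and no listed value in clone 2.

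Cholesterol synthesis and uptake genes, 26 measured, had 9 members higher and 2 lower in input by the own-table count. These were 34.6% and 7.69%, beside 18.3% and 20.8% of all genes. The median own-table change was 0.05 in the clones and 0.69 in the knockdown.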
